A study of Homo sapiens with 24 samples.

Results

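SESN2, DDIT4 and RRAGD are 3 genes that act on the growth kinase complex mTORC1. They were chosen by name, as the array rows annotated with exactly these symbols, and each has 1 row. They are 3 of 14884 named genes in the data, and all 3 were among the 10641 genes kept for testing. The choice was made with their metformin changes known, so those changes are given as a description without a test. The rule did not use the levels in untreated cells, which were tested, but the metformin changes are differences from these same arrays.

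mTORC1 drives protein synthesis and growth when amino acids and energy are plentiful. Sestrin2, encoded by SESN2, binds leucine, and without leucine it holds back the GATOR2 complex, which lowers mTORC1 activity. DDIT4 encodes REDD1, a stress-induced protein that acts through the TSC complex to switch off RHEB, the direct activator of mTORC1. RRAGD encodes RagD, which pairs with RagA or RagB to bring mTORC1 to the lysosome when amino acids are present. SESN2 and DDIT4 are known targets of ATF4, the transcription factor of the amino acid stress response, and RRAGD is a known target of the MiT/TFE factors that control lysosome genes.

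RNA of 4 established human lines of acute myeloid leukaemia (KG1a, MOLM14, HL60 and U937) was measured on 24 Affymetrix arrays. Each line was untreated or given 10 mM metformin, a complex I inhibitor, for 24 h, with 3 arrays for each of the 8 groups. The labels class KG1a and MOLM14 as high OXPHOS (oxidative phosphorylation) and HL60 and U937 as low OXPHOS, and they give all metformin-treated groups the low state. Arrays within a group carry the letters A, B and C. Nothing in the labels says that these came from separate cultures, so the p-values measure only the spread between arrays, which may be technical.

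Values are normalized signals on a log2 scale, from 1.88 to 14.2, with array medians from 3.985 to 4.076. A group mean under 4.02, the median of all rows, is near the lower end of the scale, where differences are compressed. Fewer expressing cells and less RNA per cell cannot be told apart in these bulk samples. Of the myeloid markers, SPI1 was at 7.52 in HL60, 7.94 in MOLM14, 7.58 in U937 and 4.65 in KG1a, all untreated. MPO was at 12.48 in HL60 and 8.93 in MOLM14 and under 4.02 in KG1a and U937, CD34 was at 11.24 in KG1a alone, and CD14 lay under 4.02 in every group. The T and B cell markers are not analysed here. EPB42 of red cells and EPCAM of epithelium lay between 3.87 and 4.23 in every group, and the keratin gene KRT18 between 6.60 and 7.62. Arrays of a group correlated at 0.9828 to 0.9926. In 3 groups 1 array was least like the others. These were the untreated HL60 and U937 arrays lettered C and the treated U937 array lettered A.

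The promoters of SESN2 and DDIT4 are printed because these genes had the largest metformin differences of the 3. They are the 250 bases before the RefSeq start site in GRCh38.p14, at chr1:28259268-28259517 (plus strand) for SESN2 and chr10:72273674-72273923 (plus strand) for DDIT4. Capitals mark matches to the motifs searched on both strands.
SESN2: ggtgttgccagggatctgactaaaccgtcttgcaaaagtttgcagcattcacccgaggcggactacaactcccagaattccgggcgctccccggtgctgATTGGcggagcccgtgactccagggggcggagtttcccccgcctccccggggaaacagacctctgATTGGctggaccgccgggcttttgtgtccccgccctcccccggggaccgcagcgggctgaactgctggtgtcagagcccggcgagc
DDIT4: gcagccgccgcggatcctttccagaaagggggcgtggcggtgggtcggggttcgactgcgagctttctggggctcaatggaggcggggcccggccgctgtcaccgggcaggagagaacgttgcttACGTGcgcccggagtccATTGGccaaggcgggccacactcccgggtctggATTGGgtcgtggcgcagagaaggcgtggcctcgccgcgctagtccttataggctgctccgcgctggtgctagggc
ATTGG is CCAAT, the box bound by NF-Y, read on the other strand. It occurred at 151 and 86 bases before the start of SESN2 and at 108 and 75 bases before that of DDIT4. CCAAT was added to the search after the sequences had been seen. A CCAAT match was present in 32% of 35116 promoters of this length, and at least 2 matches in 9.53%. ACGTG, the core of the hypoxia response element, occurred in DDIT4 at 125 bases before the start and is held by 18.5% of promoters. TGATGNAA, a form of the C/EBP-ATF response element held by 3.14% of promoters, and TGACGTCA, the cyclic AMP response element held by 1.65%, were in neither window. CACGTG, an E-box held by 6.34%, was in neither window.

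The same windows of the paralogs SESN1, SESN3 and DDIT4L held none of these 5 motifs. RRAGC held CACGTG at 112 bases and CCAAT at 60 bases before its start, and RRAGB held CACGTG at 115 and 25 bases. Each CACGTG match also contains ACGTG on both strands. The GC content was 65.6% for SESN2 and 68.8% for DDIT4. Of 9 sestrin, DDIT4 and Rag family genes, 7 have a promoter in the table. A match describes letters in a window and no binding was measured.

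SESN2, the leucine sensor, stood higher on the metformin arrays of all 4 lines, by 5.54-fold in HL60, 3.56-fold in U937, 1.64-fold in MOLM14 and 1.3-fold in KG1a. Untreated HL60 read 5.82, 5.50 and 5.35 on arrays A, B and C, and metformin-treated HL60 read 8.14, 7.88 and 8.06. Untreated U937 read 4.87, 4.96 and 4.77, and treated U937 read 6.54, 6.83 and 6.73. The lowest treated array was far above the highest untreated one in both lines, by 2.06 in HL60 and 1.57 in U937. MOLM14 read 5.95, 5.95 and 6.19 untreated and 6.85, 6.58 and 6.79 treated. KG1a read 3.86, 3.84 and 3.83 untreated, under the median of all rows, and 4.10, 4.04 and 4.51 treated. The groups did not overlap in MOLM14 or KG1a either, though treated array C of KG1a stood above its group.

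The mean SESN2 level went from 5.56 ± 0.24 to 8.03 ± 0.13 (SD, n = 3) in HL60 and from 4.87 ± 0.10 to 6.70 ± 0.15 in U937. It went from 6.03 ± 0.14 to 6.74 ± 0.14 in MOLM14 and from 3.84 ± 0.01 to 4.22 ± 0.26 in KG1a. These are differences of 2.47, 1.83, 0.71 and 0.37 on the log2 scale, each with a standard error of 0.12. Without treated array C the KG1a difference was 0.23. Among all 10641 genes, ordered from the largest rise, the U937 change of SESN2 was in place 1, the HL60 change in place 5, the MOLM14 change in place 22 and the KG1a change in place 142. Over the 4 lines the mean difference was 1.35 ± 0.06 (SE), in place 2.

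DDIT4, which encodes REDD1, was 6.44-fold higher with metformin in HL60, 3.29-fold in U937 and 1.66-fold in MOLM14, and its groups overlapped in KG1a. HL60 read 6.33, 6.01 and 5.92 untreated and 8.75, 8.74 and 8.83 treated. U937 read 4.62, 4.85 and 4.75 untreated and 6.40, 6.40 and 6.57 treated. MOLM14 read 7.62, 7.55 and 7.59 untreated and 8.31, 8.25 and 8.39 treated. The treated arrays of these 3 lines were all above the untreated ones, by gaps of 2.41, 1.55 and 0.63. KG1a read 5.73, 5.84 and 5.91 untreated and 5.45, 5.83 and 5.98 treated, so the treated arrays held both the lowest and the highest value.

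The mean DDIT4 level went from 6.09 ± 0.22 to 8.78 ± 0.05 (SD, n = 3) in HL60, from 4.74 ± 0.11 to 6.46 ± 0.10 in U937 and from 7.59 ± 0.03 to 8.32 ± 0.07 in MOLM14. In KG1a it was 5.83 ± 0.09 untreated and 5.75 ± 0.27 treated. The log2 differences were 2.69, 1.72, 0.73 and -0.07, with a standard error of 0.11. Without treated array A the KG1a difference was 0.08, so its sign rests on that array. Unlike SESN2, DDIT4 in KG1a lay well above the median of all rows. The U937 change of DDIT4 was in place 2 of 10641, the HL60 change in place 3, the MOLM14 change in place 20 and the KG1a change in place 6891. Its mean difference over the lines was 1.27 ± 0.06 (SE).

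RRAGD, which encodes a GTPase that recruits mTORC1, differed little with metformin beside the other 2 genes. MOLM14 read 4.36, 4.17 and 4.50 untreated and 4.70, 4.97 and 4.86 treated, a 1.41-fold difference with no overlap. HL60 read 7.57, 7.41 and 7.46 untreated and 7.70, 7.85 and 7.71 treated, a 1.21-fold difference with a gap of 0.13 between the groups. U937 read 6.44, 6.69 and 6.48 untreated and 6.52, 6.74 and 6.77 treated. KG1a read 3.40, 3.52 and 3.66 untreated and 3.43, 3.56 and 3.36 treated. The groups overlapped in U937 and KG1a, and both KG1a groups lay under the median of all rows.

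The RRAGD log2 differences were 0.50 in MOLM14, 0.27 in HL60, 0.14 in U937 and -0.07 in KG1a, with a standard error of 0.10. The U937 value ranged from 0.09 to 0.22 as single arrays were left out. RRAGD was in place 89 of 10641 in MOLM14, 1841 in HL60, 2498 in U937 and 6871 in KG1a. MOLM14 was thus the line with the largest RRAGD difference, whereas HL60 had the largest SESN2 and DDIT4 differences. The mean over the lines was 0.21 ± 0.05 (SE), in place 1004.

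The share of all genes whose treated arrays were all above the untreated ones was 21.2% in HL60, 7.31% in KG1a, 13.3% in MOLM14 and 13.6% in U937. All 3 genes were in that share in HL60 and MOLM14, SESN2 and DDIT4 in U937, and SESN2 in KG1a. These contrasts entered the choice of the genes, so nothing is read from the counts. Without the 3 arrays least like their groups, the SESN2 difference was 2.37 in HL60 and 1.86 in U937, that of DDIT4 2.60 and 1.75, and that of RRAGD 0.26 and 0.19.

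**Figure D1:**
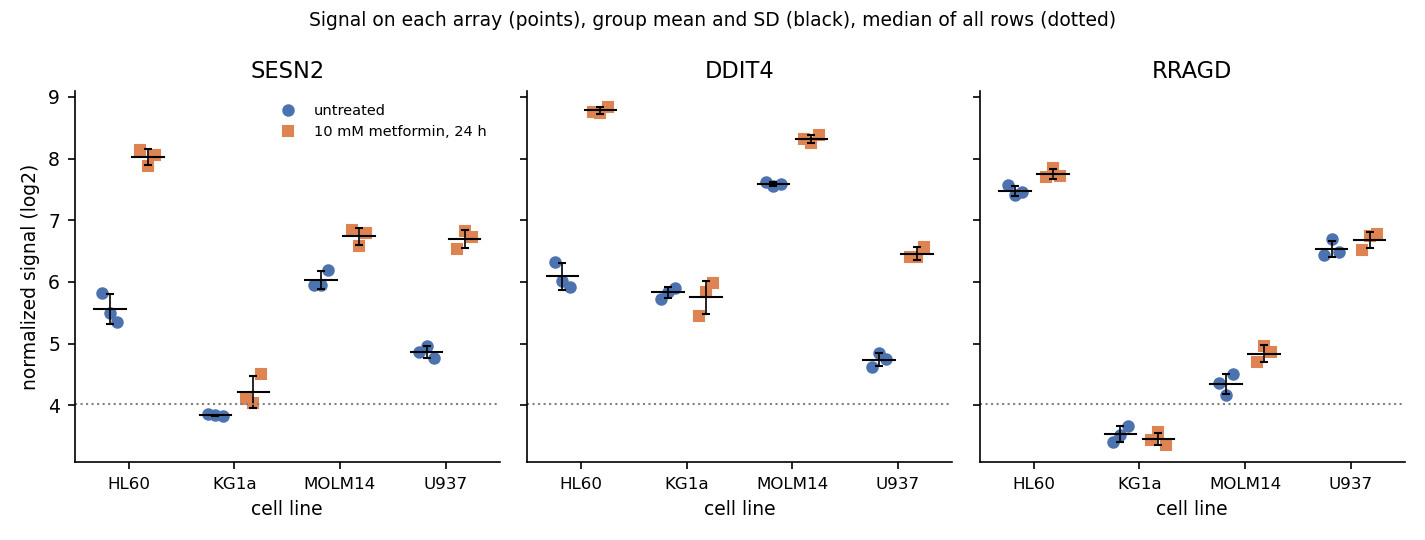
Normalized log2 signal of SESN2, DDIT4 and RRAGD on each of the 24 arrays, by cell line, for untreated (circles) and metformin-treated (squares) groups. Black lines give the group mean and SD (n = 3), and the dotted line is the median of all rows, 4.02. SESN2 is separated by treatment in all 4 lines, DDIT4 in all but KG1a, and RRAGD differs more between lines than with treatment.

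The size of the metformin difference itself varied between lines, and SESN2 and DDIT4 shared the order HL60, U937, MOLM14, KG1a. For SESN2 the HL60 difference exceeded that of U937 by 0.64 ± 0.18 (SE), that of MOLM14 by 1.76 and that of KG1a by 2.10. For DDIT4 the same excesses were 0.97 ± 0.16, 1.96 and 2.76. MOLM14 exceeded KG1a by 0.34 for SESN2 and 0.80 for DDIT4. RRAGD had another order, with MOLM14 above HL60 by 0.22 ± 0.14, above U937 by 0.36 and above KG1a by 0.57. The RRAGD values of HL60 and U937 lay 0.13 apart, within the standard error of that difference.

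**Figure D2:**
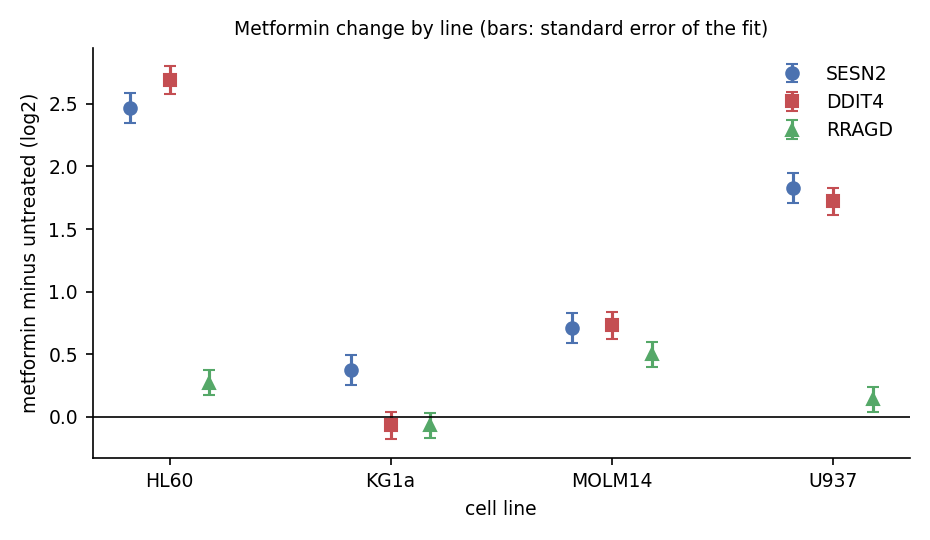
Metformin minus untreated log2 signal of SESN2, DDIT4 and RRAGD in each cell line, with the standard error of the fit. HL60 and U937 show the largest SESN2 and DDIT4 differences (2.47 and 2.69, 1.83 and 1.72), MOLM14 shows 0.71 and 0.73, and KG1a shows 0.37 and -0.07.

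In untreated cells each gene had its own order of lines, and RRAGD followed the OXPHOS class of the labels. RRAGD was highest in HL60 at 7.48 ± 0.08 (SD, n = 3), then U937 at 6.54 ± 0.13, MOLM14 at 4.35 ± 0.16 and KG1a at 3.53 ± 0.13. DDIT4 was highest in MOLM14 and lowest in U937, a 7.2-fold difference. SESN2 was highest in MOLM14 and lowest in KG1a, a 4.56-fold difference, with KG1a under 4.02. These tests share the untreated arrays with the metformin differences above.

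For RRAGD every pair of lines differed beyond the spread between arrays. HL60 exceeded KG1a 15.5-fold (log2 3.95 ± 0.10 SE, limma adjusted p = 5.74e-21) and MOLM14 8.79-fold (adjusted p = 1.19e-18). U937 exceeded KG1a 8.06-fold (adjusted p = 1.37e-18) and MOLM14 4.57-fold (adjusted p = 1.63e-15). The KG1a level lay under 4.02, where differences are compressed, and no background signal was used, so folds against KG1a are those of the deposited values. The steps within a class were smaller. HL60 exceeded U937 1.92-fold (adjusted p = 1.8e-08), and MOLM14 exceeded KG1a 1.76-fold (adjusted p = 1.31e-07).

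The mean RRAGD level of the high OXPHOS lines was 3.94, against 7.01 in the low OXPHOS lines. That is 8.42-fold lower (log2 -3.07 ± 0.07 SE, limma adjusted p = 1.47e-21), and all 6 arrays of KG1a and MOLM14 lay below all 6 of HL60 and U937. Such a separation was seen for 6.98% of all genes, and 61.9% of genes passed the class test. KG1a, under 4.02, enters the lower mean. By the size of its class difference RRAGD was in place 51 of 10641. Each class is 2 lines, so class and line cannot be told apart.

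For DDIT4 the untreated order was MOLM14 at 7.59, HL60 at 6.09, KG1a at 5.83 and U937 at 4.74. MOLM14 exceeded U937 by 2.85 ± 0.11 (SE, limma adjusted p = 6.21e-17), KG1a by 1.76 (adjusted p = 6.4e-13) and HL60 2.82-fold (adjusted p = 2.43e-11). HL60 exceeded U937 by 1.35 (adjusted p = 1.74e-10) and KG1a exceeded U937 by 1.09 (adjusted p = 5.57e-09). HL60 and KG1a were neighbours whose difference of 0.26 did not pass (adjusted p = 0.0503), although their arrays did not overlap. That difference was 0.14 without HL60 control A (adjusted p = 0.329) and 0.34 without HL60 control C (adjusted p = 0.0178). It also passed without KG1a control C (0.30, adjusted p = 0.0475), and without KG1a metformin A (0.26, adjusted p = 0.0214) or C (0.26, adjusted p = 0.0368).

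The mean DDIT4 level of the high OXPHOS lines, 6.71, exceeded that of the low OXPHOS lines, 5.41, by 1.29 ± 0.08 (SE, limma adjusted p = 3.73e-13). The arrays did not separate by class, since KG1a lay under HL60. By the size of this difference DDIT4 was in place 619 of 10641.

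For SESN2 the untreated order was MOLM14 at 6.03, HL60 at 5.56, U937 at 4.87 and KG1a at 3.84, and all neighbours differed. MOLM14 exceeded HL60 by 0.47 ± 0.12 (SE, limma adjusted p = 0.00209), HL60 exceeded U937 by 0.69 (adjusted p = 3.9e-05) and U937 exceeded KG1a by 1.03 (adjusted p = 8.66e-08). MOLM14 exceeded KG1a by 2.19 (adjusted p = 5.89e-14) and U937 by 1.16 (adjusted p = 1.44e-08), and HL60 exceeded KG1a by 1.72 (adjusted p = 8.61e-12). The class difference was small, -0.28 ± 0.09 (adjusted p = 0.00834), and the highest and the lowest line are both high OXPHOS. SESN2 was in place 5046 of 10641 by its size.

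Of the 18 tests of the 3 genes between pairs of untreated lines, 17 passed. Of all genes, 57.4% passed between HL60 and KG1a, 56.6% between HL60 and MOLM14, 55.9% between HL60 and U937, 61.1% between KG1a and MOLM14, 61.9% between KG1a and U937, and 55.7% between MOLM14 and U937. Passing was therefore common for any gene. In size, the range of untreated levels over the lines was 3.95 for RRAGD, 2.85 for DDIT4 and 2.19 for SESN2, against a median of 0.76 over all genes.

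After metformin the order of lines changed for SESN2 and DDIT4 but not for RRAGD. SESN2 was highest in HL60 at 8.03, then MOLM14 at 6.74 and U937 at 6.70, which differed by 0.04 ± 0.12 (SE), then KG1a at 4.22. Its range over the lines went from 2.19 untreated to 3.81. DDIT4 was highest in HL60 at 8.78, then MOLM14 at 8.32, U937 at 6.46 and KG1a at 5.75. U937, the lowest line for DDIT4 before treatment, stood above KG1a by 0.70 ± 0.11 after it. RRAGD kept the order HL60, U937, MOLM14, KG1a, with levels of 7.75, 6.68, 4.84 and 3.45.

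None of the 5 tested paralogs passed with a rise in any line. Of all genes, 25.1% passed in HL60, 2.49% in KG1a, 5.06% in MOLM14 and 17.2% in U937, in either direction. Nothing is read from a count of 5 genes. SESN1 and SESN3 encode the other sestrins. SESN1 did not pass in any line or in the mean of the lines (0.04 ± 0.04 SE, limma adjusted p = 0.519), with values of 0.21 in HL60, 0.14 in KG1a, -0.12 in MOLM14 and -0.06 in U937. SESN3 fell by 0.80 ± 0.13 in HL60 (adjusted p = 4.37e-05) and by 0.45 in U937 (adjusted p = 0.0141), and did not pass in KG1a (-0.14) or MOLM14 (-0.17). SESN3 lay under the median of all rows in every line but HL60. DDIT4L, the DDIT4 paralog, lay between 3.47 and 3.58 in all 8 groups and was not tested.

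Of the other Rag GTPases, RRAGA and RRAGB encode the partners of RagC and RagD, and RRAGC encodes the closest relative of RagD. None of RRAGA, RRAGB and RRAGC passed in any line, where 2.49% to 25.1% of all genes did. The mean differences were -0.12 ± 0.07 (SE) for RRAGA (limma adjusted p = 0.175), 0.05 ± 0.07 for RRAGB (adjusted p = 0.628) and -0.04 ± 0.06 for RRAGC (adjusted p = 0.647). None of these tests of the mean had an unadjusted p under 0.05, as 41.3% of all genes did.

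Untreated levels of the paralogs also differed from line to line. SESN1 was at 7.10 in KG1a, 6.82 in MOLM14, 5.20 in U937 and 4.82 in HL60, so it was 3.86-fold higher in the high OXPHOS lines (limma adjusted p = 1.01e-18), with all arrays of these lines above those of the others, as for 5.21% of all genes. This is the opposite direction to RRAGD and to the small SESN2 difference. RRAGC was at 7.29 in U937, 6.46 in HL60, 6.45 in KG1a and 5.93 in MOLM14. Its class difference of -0.68 ± 0.09 (SE, adjusted p = 2.06e-07) had the sign of that of RRAGD, and 61.9% of all genes passed that test. Unlike RRAGD, its arrays did not separate by class, and HL60 and KG1a did not differ (adjusted p = 0.978). RRAGA (0.04, adjusted p = 0.724) and RRAGB (0.22, adjusted p = 0.0802) did not pass between the classes.

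**Figure D3:**
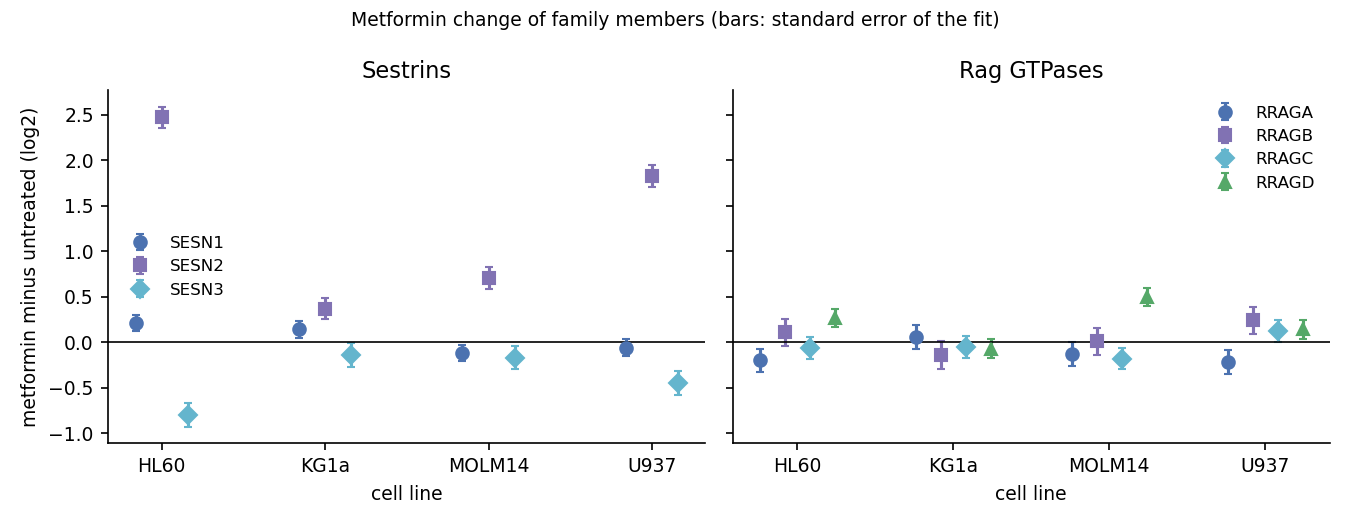
Metformin minus untreated log2 signal of the sestrin genes (left) and the Rag GTPase genes (right) in each cell line, with the standard error of the fit. SESN2 lies above 0 in every line while SESN3 lies below it and SESN1 between -0.12 and 0.21. Among the Rag genes RRAGD in MOLM14 (0.50) is the highest value.

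The wider mTORC1 pathway was described by 14 lists of 77 further genes, of which 49 were tested. In the mean of the 4 lines 11 rose and 7 fell, 36.7% of those tested, against 32.3% of all genes. Their median difference was 0.01, against -0.01 over all genes, and their median absolute difference was 0.08, against 0.09. By count and size the tested genes of these lists were close to genes in general. RPTOR, MLST8, RICTOR, RPS6KB1 and all AMPK subunit genes of the lists have no named row here, so nothing is said of them. Quantile normalization gave 11 that fell.

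Among the amino acid sensors, LARS1, the leucyl-tRNA synthetase that also reports leucine to the Rag GTPases, rose by 0.32 ± 0.04 (SE, limma adjusted p = 1.58e-06). SAR1B, a small GTPase described as a leucine sensor, fell by 0.19 (adjusted p = 0.000245). GATOR2, the complex that sestrins bind, had 1 gene up, WDR59 at 0.18 (adjusted p = 0.00333), and 1 down, SEH1L at -0.20 (adjusted p = 7.85e-05), of 3 tested (66.7%, against 32.3% of all genes). GATOR1 and its KICSTOR tether, which switch off the Rag GTPases, had 2 of 6 genes up (33.3%, against 32.3% of all genes). They were KICS2 at 0.45 ± 0.06 (adjusted p = 5.02e-06) and NPRL3 at 0.22 (adjusted p = 0.000635). The Ragulator subunit LAMTOR4 fell by 0.17 (adjusted p = 0.0118), and FNIP1, the partner of the RagC and RagD activator FLCN, rose by 0.17 (adjusted p = 0.00554).

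On the TSC side, where REDD1 acts, TSC1 rose by 0.26 ± 0.05 (SE, limma adjusted p = 9.03e-05). The other 3 of 4 tested genes of the TSC and RHEB list did not pass, so 25% were called, against 32.3% of all genes. DEPTOR, an inhibitor bound to mTOR, rose by 0.20 (adjusted p = 0.0348), and of the upstream kinases STK11 fell by 0.14 (adjusted p = 0.0283) and PDPK1 by 0.11 (adjusted p = 0.0401). The DEPTOR, STK11 and PDPK1 calls were lost in 12, 7 and 16 of 31 alternatives. Of 8 tested genes on the list of mTORC1 substrates, 4 rose and 1 fell (62.5%, against 32.3% of all genes). PDCD4 on that list is a target of S6 kinase, downstream of mTORC1, and not a direct substrate. PDCD4, an inhibitor of translation, rose by 0.58 ± 0.05 (adjusted p = 4.78e-09), GRB10, an adaptor that dampens insulin signalling, by 0.51 ± 0.06 (adjusted p = 1.17e-06), and EIF4EBP1, a translation repressor, by 0.25 (adjusted p = 0.000149). In the mean of the lines limma called none of 4 MiT/TFE factors, and none had an unadjusted p under 0.05, as 41.3% of all genes did. By line TFE3, named after its value was seen, fell by 0.33 in U937 (adjusted p = 0.0148).

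By line, 10 of the 49 genes rose and 4 fell in HL60 (28.6%, against 25.1% of all genes), and 6 rose and 5 fell in U937 (22.4%, against 17.2%). In MOLM14 2 rose, KICS2 and GRB10 (4.08%, against 5.06%). In KG1a limma called none, against 2.49% of all genes. There 7 of the 49 had an unadjusted p under 0.05, as 15.4% of all genes did. Over the alternatives 2 to 6 genes rose and 1 to 6 fell in U937, with the lowest counts in a fit on U937 alone. Without the 3 arrays least like their groups, 2 rose and 3 fell there. Without U937 control C, 3 rose there, and without U937 control B or metformin C, 3 fell. In HL60 8 genes fell with quantile normalization and 2 without metformin B. In MOLM14 1 gene in place of 2 rose under 15 of 33 alternatives.

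KG1a, the line with the smallest SESN2 difference and overlapping DDIT4 groups, had differences of 0.00 for FNIP1, 0.01 for TSC1, -0.01 for KICS2, -0.03 for GRB10 and 0.24 for PDCD4. In HL60 the same genes stood at 0.47, 0.63, 0.90, 0.93 and 1.13. GRB10 in KG1a lay at 3.55 untreated and 3.52 treated, under 4.02, where differences are compressed. The difference between lines passed a moderated F test for the 5 genes FNIP1, TSC1, KICS2, GRB10 and PDCD4. It also passed for SESN3 and FNIP2, which makes 7 of 49 or 14.3%, against 10% of all genes. FNIP2, which also partners FLCN, had another pattern, with -0.27 in KG1a, -0.35 in HL60, -0.19 in MOLM14 and 0.37 in U937. SESN3 had -0.14 in KG1a, where both groups lay under 4.02, and -0.80 in HL60.

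**Figure D4:**
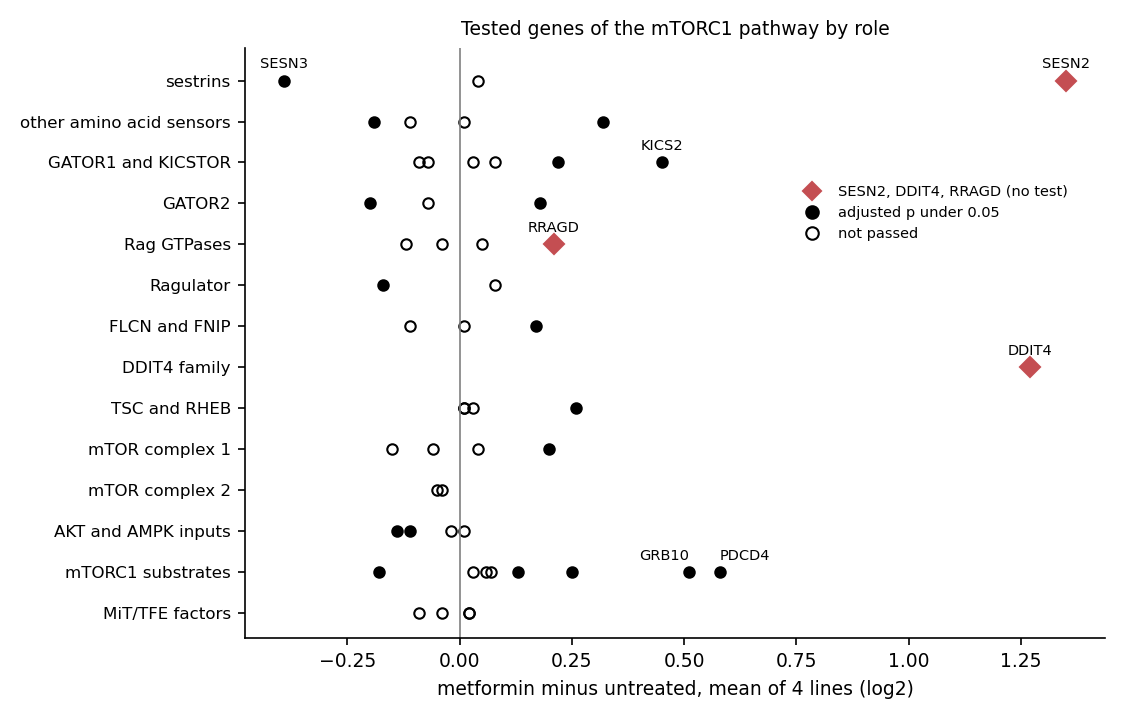
Mean metformin difference over the 4 lines (log2) of each tested gene of the mTORC1 pathway, by role. Filled circles passed at an adjusted p under 0.05, open circles did not, and diamonds are SESN2, DDIT4 and RRAGD, which were not tested. SESN2 (1.35) and DDIT4 (1.27) lie to the right of every listed gene, the next being PDCD4 (0.58) and GRB10 (0.51).

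In untreated cells 9 of the 49 pathway genes were higher and 19 lower in the high OXPHOS lines (57.1%, against 61.9% of all genes). Their differences ran from -1.74 for GRB10 to 2.33 for FNIP1. The RRAGD difference of -3.07 lay outside this range. Neither end of the range was even within its class. FNIP1 was under 4.02 in U937 alone (3.51, against 6.70 in HL60), and GRB10 in KG1a alone (3.55, against 5.08 in MOLM14).

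Genes of the factors known to regulate SESN2 and DDIT4 gave the following values, on lists drawn up with earlier results of these data known. Of 13 tested genes of the ATF4 list, 12 rose in the mean of the lines and none fell (92.3%, against 32.3% of all genes). Their median difference was 0.86, against -0.01 over all genes. ASNS, asparagine synthetase, rose by 0.98 ± 0.04 (SE, limma adjusted p = 2.7e-14), PSAT1 of serine synthesis by 0.97 ± 0.03 (adjusted p = 1.24e-15) and DDIT3, which encodes CHOP, by 1.18 ± 0.06 (adjusted p = 2.45e-13). By line, 11 rose in HL60 (84.6%, against 25.1% of all genes called), 10 in U937 (76.9%, against 17.2%), 9 in MOLM14 (69.2%, against 5.06%) and 3 in KG1a (23.1%, against 2.49%). Since the list was drawn up with earlier results of these data known, nothing is read from these shares.

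The 3 that rose in KG1a were PSAT1 (1.23), PHGDH of serine synthesis (0.82, named after its value was seen) and ASNS (0.68), beside 0.37 for SESN2 and -0.07 for DDIT4 there. DDIT3 had 2.43 in HL60, 1.61 in U937, 0.68 in MOLM14 and 0.03 in KG1a. The SESN2 values in the same order were 2.47, 1.83, 0.71 and 0.37. All of these differences share the same untreated arrays. In KG1a DDIT3 lay at 3.43 untreated and 3.47 treated, under 4.02, where differences are compressed. ATF3, STC2 and VLDLR of the ATF4 list, named after their values were seen, also lay under 4.02 in both KG1a groups. This limits the count of genes that rose in KG1a. ATF3 and STC2 also lay under 4.02 in both U937 groups. The remaining tested genes of the list lay above 4.02 in both KG1a groups and did not pass there either. Their differences were -0.29 for CTH, -0.12 for ATF5, 0.05 for ATF4, -0.04 for GDF15, 0.13 for TRIB3 and 0.25 for VEGFA.

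The p53 list holds 14 genes, of which 6 were tested. CDKN1A, MDM2, FAS and GADD45A are among those with no named row here, so the list says little of p53 targets at large. Of the 6 limma called none in the mean of the lines, and none had an unadjusted p under 0.05, at differences from -0.15 to 0.06. Over all genes 32.3% were called there and 41.3% had an unadjusted p under 0.05. The shares called of the next 3 lists, 25%, 40% and 40%, were near that of all genes. Of 4 tested NRF2 targets, from 9 listed, TXNRD1, thioredoxin reductase, rose by 0.15 ± 0.04 (SE, adjusted p = 0.00465). The HIF list holds 11 genes, of which 5 were tested. VEGFA, which the ATF4 list also holds, rose by 0.86 ± 0.05 (adjusted p = 3.02e-12). BNIP3, a mitophagy receptor, fell by 0.52 ± 0.05 (adjusted p = 2.84e-08). Of 5 glucocorticoid receptor targets PER1 fell by 0.30 ± 0.06 (adjusted p = 0.000222) and KLF9 rose by 0.13 (adjusted p = 0.0466), a call lost in 22 of 31 alternatives.

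The genes most like each of the 3 over the 8 group means were sought among 4981 tested genes that spanned at least 1 log2 unit. These Pearson correlations rest on 8 means from the same arrays and are descriptions. SESN2 was most like DDIT3 (r = 0.994) and MIR616 (0.987), a microRNA gene that lies within DDIT3, then TATDN3 (0.972), RSL24D1 (0.969) and SPMIP4 (0.968). RRAGD was most like CDKN2B-AS1 (0.995), TFR2 (0.992), FNDC3B (0.989), SCARNA9L (0.986) and MAP3K21 (0.983). The best matches of DDIT4 were looser, with MIR4295 at 0.952, VPS29 at 0.943, NKAPP1 at 0.941, RHBDD1 at 0.94 and MTG1 at 0.939.

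Among themselves, SESN2 and DDIT4 correlated at 0.82 over the 8 means, SESN2 and RRAGD at 0.632 and DDIT4 and RRAGD at 0.16. DDIT4 was in place 178 among the genes most like SESN2.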

How the data were processed

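The deposited values were taken as log2 signals, 1 column per array. No source states the log base, and the range and the array medians fit that scale. RNA (250 ng) was labelled for Affymetrix arrays per the labels' protocols. The submitters' processing notes name Partek. How the authors corrected background and normalized, and on which build, was not given in the sources used here. No signal over background was used, and the number of arrays limits the precision.

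Of 53617 rows, 16098 name 1 gene and 37519 are unnamed here. All 16098 identifiers matched RefSeq of GRCh38.p14. Where a gene has several rows, that of highest mean was kept. Genes were tested if any group mean was 4.02 (the median over rows) or more. A model of 8 group means was fitted with limma 3.58.1 (R 4.3.3), leaving 16 residual degrees of freedom. P-values were adjusted by Benjamini-Hochberg per contrast over 10641 genes, with a threshold of 0.05. The fit was tested on simulated data. Promoters came from RefSeq tables through Python 3.11.15, and figures from matplotlib 3.10.9.

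The members and gene lists were chosen with earlier results of these data known. Named genes are the 3 genes, their paralogs, up to 3 genes of each list with the smallest adjusted p in the mean change, and the 5 most alike genes of each member. Alternatives were normalization, filters, the variance trend, fits on fewer lines, row averaging, joint adjustment, a replicate block and each array left out. The main fit did not pair arrays by replicate letter. After removal of group means, 1 of 12 same-letter pairs correlated over 0.1 (range -0.06 to 0.15), which cannot exclude pairing.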

Additional observations from a re-analysis of the deposited data

Results flagged for a closer look

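The metformin change differed between the 4 lines, by the moderated F test of limma, for 11 of 27 genes named from the lists, against 10% of all genes. These 27 had been picked by their p in the mean change, so the shares are not alike in kind. SESN2, DDIT4 and RRAGD were not tested. Among mTORC1 pathway genes the largest minus the smallest change over the lines (log2) was 1.03 for PDCD4 (adjusted p = 3.57e-05), 0.96 for GRB10 (adjusted p = 0.00387), 0.91 for KICS2 (adjusted p = 0.00426), 0.66 for SESN3 (adjusted p = 0.0397), 0.62 for TSC1 (adjusted p = 0.00462) and 0.48 for FNIP1 (adjusted p = 0.0362). For all of these but SESN3 the change was largest in HL60, and SESN3 fell the most there. GRB10 in KG1a, FNIP1 in U937 and SESN3 in every line but HL60 lay under 4.02 with and without metformin. This limits their changes in those lines.

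Among targets of stress regulators it was 2.39 for DDIT3 (adjusted p = 2.41e-09), 1.43 for VEGFA (adjusted p = 1.1e-06), 0.87 for ASNS (adjusted p = 3.57e-05), 0.59 for KLF9 (adjusted p = 0.0249) and 0.54 for PSAT1 (adjusted p = 0.00345). PSAT1 differed from the others in that KG1a had its largest change, 1.23. DDIT3 lay under 4.02 in both KG1a groups, which limits its change there.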

How the results depend on the processing

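The 36 results of SESN2, DDIT4 and RRAGD were recomputed under 31 to 34 alternatives each. The DDIT4 change in KG1a reversed to 0.08 without metformin array A (range -0.19 to 0.08 as single arrays were left out). The untreated DDIT4 difference of HL60 and KG1a passed with quantile normalization (0.28, adjusted p = 0.031), a stricter filter (0.26, 0.0409), a variance trend (0.26, 0.0468), the mean of all rows (0.26, 0.0493), adjustment over the 6 pairs together (0.26, 0.0498) and, chosen after seeing the data, without the untreated HL60 and U937 arrays lettered C and the treated U937 array A (0.34, 0.0209). It ranged from 0.14 to 0.34 as single arrays were left out. The cause was not tested. The other 34 results kept their direction and, where tested, their side of the threshold. Of mTORC1 pathway genes 11 fell with quantile normalization, against 7.

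The number of genes called with metformin ranged over the alternatives from 83 to 470 in KG1a (265 as reported), 307 to 806 in MOLM14 (538) and 847 to 2075 in U937 (1830). With the replicate block within each line 133 genes were called in KG1a. In this balanced design a block cannot move a treated minus untreated mean, such as the SESN2 difference of 2.47 in HL60. A block within a line cannot span 2 lines, so a replicate block shared by all lines, added after seeing the data, was used for untreated levels, and the DDIT4 difference of HL60 and KG1a was 0.26 (adjusted p = 0.0529). SESN2 and RRAGD in KG1a lay near the lower end of the scale, which limits their folds.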

Other observations

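Genes of the lysosome and of autophagy that MiT/TFE factors are known to control moved in both directions. RRAGD is itself such a target. Of 14 tested, 4 rose and 4 fell in the mean of the lines (57.1%, against 32.3% of all genes), with a median difference of 0.08. The 3 with the smallest adjusted p all fell. They were MCOLN1, a lysosomal calcium channel, by 0.24 (limma adjusted p = 0.000106), CTSA, a lysosomal carboxypeptidase, by 0.15 (adjusted p = 0.00442) and NEU1, a lysosomal sialidase, by 0.16 (adjusted p = 0.00473). In MOLM14, where the RRAGD difference was largest, limma called none of the 14, against 5.06% of all genes, and 3 had an unadjusted p under 0.05, against 17.7% of all genes. Counts this low are near those of genes in general.

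Of the myeloid markers MPO, the granule peroxidase, fell by 1.32 with metformin in MOLM14 (limma adjusted p = 2.76e-09), from 8.93 to 7.62. SPI1, a myeloid transcription factor, fell by 0.34 in HL60 (adjusted p = 0.0238). The 2 did not fall together, with MPO at 0.04 in HL60 (adjusted p = 0.784) and SPI1 at 0.16 in MOLM14 (adjusted p = 0.485). Neither passed in KG1a or U937, and CD34 did not pass in any line. CD14 was not tested, and PTPRC, CD33 and ITGAM have no named row here. The part of these markers in the SESN2, DDIT4 and RRAGD values was not tested.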
